A study of Mus musculus with 12 samples.

Results

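The cell cycle and DNA replication genes described here are 37 genes chosen by name. They comprise cyclins and their kinase Cdk1, origin licensing factors and Mcm helicase subunits, the replication clamp and enzymes of nucleotide supply. They further comprise mitotic kinases, spindle, kinetochore and cytokinesis proteins, regulators of the anaphase-promoting complex, and the proliferation markers Mki67 and Top2a. Of these, 35 are among the 14159 genes with listed values in the iWAT libraries, and Bub1 and Cdc6 were not analysed here. All 35 passed the filter of a mean of at least 10 normalized counts, which left 13404 tested genes. Each also had a mean of at least 10 in each of the 4 groups. Polyadenylated RNA was sequenced from inguinal white adipose tissue (iWAT) of C57BL/6 mice of 2 genotypes. Atf4AKO mice carry floxed Atf4 alleles together with Adiponectin-Cre, which is active in adipocytes, so that the other cells of the tissue keep an intact Atf4. Their floxed littermates without Cre are called Atf4WT. Mice of both genotypes were kept at room temperature (RT) or exposed to cold for 24 h, with 3 biological replicates, numbered 0, 1 and 2, in each of the 4 groups. The age of these mice is not given in the sources used here. The libraries held from 25719476 to 29105147 reads on the genes with listed values.

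A dividing cell activates its cyclin-dependent kinases in turn, licenses replication origins by loading the Mcm helicase, copies its DNA with the help of the Pcna clamp, and then separates its chromosomes on a spindle built by Aurora and Polo kinases, kinesins and their partners. Many of these genes are transcribed in waves within the cycle, those of DNA replication largely through E2F factors and those of mitosis largely through complexes that bind CHR elements and CCAAT boxes. In adipose tissue the cycling cells are mostly progenitors, endothelial cells and immune cells, and the inguinal depot also holds a lymph node, whose B cells express Cd79a, a part of the B cell receptor, and whose T cells express Lck, a kinase of the T cell receptor.

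Values are normalized counts, that is, reads over the size factor that DESeq2 gave the library. They are given in the order of replicates 0, 1 and 2. Atf4, the deleted gene, was measured at 5669, 4670.3 and 4107 in Atf4WT and 1594, 1469.7 and 1639 in Atf4AKO iWAT at RT. Its cold-exposed libraries had 7644, 7511 and 5756 in Atf4WT and 1578, 788 and 1179.8 in Atf4AKO iWAT. Every Atf4AKO library lay below every Atf4WT library. The genotypes differed by a log2 fold change of -1.61 (SE 0.22, adjusted p = 0.0762 from limma) at RT and of -2.60 (SE 0.22, adjusted p = 0.000644 from limma) after cold exposure. Ucp1, the uncoupling protein gene of thermogenic fat cells, had 439, 685 and 204 in Atf4WT and 1097, 441 and 298 in Atf4AKO iWAT at RT. The values after cold exposure were 94771, 73632 and 74684 in Atf4WT and 81033, 119558 and 90868 in Atf4AKO iWAT. All cold-exposed libraries thus stood far above those at RT. Adipoq, an adipocyte marker, had between 55499.7 and 108458 normalized counts in the 12 libraries. Some libraries stood apart in transcripts of other tissues. The 3 listed skeletal muscle markers of 5, of which Acta1 was the highest in counts, had a summed level of 71044 in replicate 2 of Atf4WT at RT, 25584 in replicate 0 of cold-exposed Atf4WT and 2678 in replicate 1 of cold-exposed Atf4AKO, and at most 835 in the other libraries. Cd79a was at 22.97, 13.5 and 772 in Atf4WT and 75.3, 17.9 and 48.2 in Atf4AKO iWAT at RT. In the cold-exposed mice it was at 723, 1792 and 2667 in Atf4WT and 55.3, 20.4 and 13.97 in Atf4AKO iWAT. It was high in all 3 cold-exposed Atf4WT libraries and in replicate 2 of Atf4WT at RT, and at most 75.3 in the other 8 libraries. Lck was at 67.99, 57.7 and 199 in Atf4WT and 92.96, 99.6 and 249.6 in Atf4AKO iWAT at RT. After cold exposure the values were 226, 1215 and 1438 in Atf4WT and 136, 51.02 and 71.99 in Atf4AKO iWAT. It was high in replicates 1 and 2 of cold-exposed Atf4WT only, and at most 249.6 in the other 10 libraries. In whole tissue, fewer cells of a type and less RNA per cell cannot be told apart.

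Levels of the members were compared per length, as the mean normalized count over the 12 libraries per kilobase of the listed transcript. On this scale Pcna, the sliding clamp of the DNA polymerases, was highest with a level of 1004 per kilobase. It was followed by the helicase subunit gene Mcm7 with 294 per kilobase, Rrm1, the large subunit of ribonucleotide reductase, with 186 and Mcm6 with 116. Ube2c, the ubiquitin-conjugating enzyme of the anaphase-promoting complex, came next with 114 per kilobase. Mki67, which coats mitotic chromosomes and is the customary marker of cycling cells, had 19.9 per kilobase, and the kinetochore protein genes Cenpe and Cenpf were lowest with 4.9 and 2.59. Members of replication were thus more abundant than most members of mitosis. Pcna and ribonucleotide reductase also serve DNA repair. The smallest value of a member in a library was 1 read, for Cenpf, and the largest was 1863 reads, for Pcna. The members lie on 16 chromosomes. Exons of 10 members share bases with a gene on the opposite strand, with a shared part above 10% of the exon bases in 5 of them. These are Kif20a with Cdc23 (29.3%), Ube2c with the muscle gene Tnnc2 (22.8%), Ccne2 with Ints8 (17.4%), Ccna2 with Exosc9 (12.5%) and Prc1 with Rccd1 (11.1%). The libraries were strand-specific, but the strand setting of the counting is not given in the sources used here. Reads of these 5 genes and of their partners may therefore not have been told apart. Ccnb1, Ccnb2 and Pcna have annotated pseudogenes of their name, with which their reads could be split.

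Promoters of 29 of the 35 members were matched by symbol in RefSeq (GRCm38.p6), as 300 bases from 250 before to 50 after the start of transcription, and 3 kinds of letters were searched on both strands. A CCAAT box (CCAAT) was present in 79.3% of these 29 members, in 41.1% of all 27025 genes with a promoter and in 42.6% of the 10662 tested genes with a promoter. A CHR (TTTGAA or TTCGAA) was present in 55.2% of the members, in 21.7% of all genes and in 16.6% of these tested genes. An E2F motif (TTTGGCGC, TTTCCCGC, TTTCGCGC or TTTGCCGC) was present in 20.7% of the members, in 2.6% of all genes and in 4.47% of these tested genes. The letters were split by role. Of 10 members of licensing, helicase, clamp and nucleotide supply, 5 held an E2F motif and 2 a CHR. Of the 19 other members, 1 held an E2F motif and 14 a CHR. These matches describe letters and are not evidence of binding, and the same window without a match says only that the letters are not in it. The promoters of 6 members named in the comparisons are shown from 5′ to 3′ on the strand of the gene, with the searched letters of either strand in capitals. They lie at chr8:122567765-122568064 (plus strand) for Cdt1, chr1:20820263-20820562 (minus strand) for Mcm3, chr8:75109259-75109558 (plus strand) for Mcm5, chr2:164769679-164769978 (plus strand) for Ube2c, chr7:135716330-135716629 (minus strand) for Mki67 and chr11:99024140-99024439 (minus strand) for Top2a. Cdt1, Mcm3 and Mcm5 hold E2F motifs and no CHR, and Ube2c, Mki67 and Top2a hold CCAAT boxes and CHR letters and no E2F motif. These 6 were picked by hand, and other members named in the comparisons do not split in this way. Mcm2 holds a CHR and no E2F motif, Cdk1 holds both, and Nusap1 holds none of the 3 kinds of letters. In Mcm5 the motifs TTTCGCGC and, on the other strand, TTTGGCGC overlap, and in Ube2c a pair of CCAAT boxes on opposite strands overlap.
Cdt1: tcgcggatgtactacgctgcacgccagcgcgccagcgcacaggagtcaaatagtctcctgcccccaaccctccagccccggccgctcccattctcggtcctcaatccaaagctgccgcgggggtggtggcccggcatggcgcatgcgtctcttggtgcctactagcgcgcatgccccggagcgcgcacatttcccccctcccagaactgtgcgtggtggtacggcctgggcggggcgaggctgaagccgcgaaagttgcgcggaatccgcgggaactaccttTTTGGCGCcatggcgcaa
Mcm3: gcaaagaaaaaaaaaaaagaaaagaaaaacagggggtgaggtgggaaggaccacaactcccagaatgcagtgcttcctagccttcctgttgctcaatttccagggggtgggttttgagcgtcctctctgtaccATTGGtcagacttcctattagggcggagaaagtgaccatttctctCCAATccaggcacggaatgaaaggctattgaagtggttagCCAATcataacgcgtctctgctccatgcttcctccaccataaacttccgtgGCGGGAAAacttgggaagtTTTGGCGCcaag
Mcm5: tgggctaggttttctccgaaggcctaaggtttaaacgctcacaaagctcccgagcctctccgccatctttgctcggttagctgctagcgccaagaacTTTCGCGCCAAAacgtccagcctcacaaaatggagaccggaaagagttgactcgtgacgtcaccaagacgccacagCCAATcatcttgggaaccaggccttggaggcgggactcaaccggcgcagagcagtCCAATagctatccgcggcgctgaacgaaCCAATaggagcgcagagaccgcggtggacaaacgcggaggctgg
Ube2c: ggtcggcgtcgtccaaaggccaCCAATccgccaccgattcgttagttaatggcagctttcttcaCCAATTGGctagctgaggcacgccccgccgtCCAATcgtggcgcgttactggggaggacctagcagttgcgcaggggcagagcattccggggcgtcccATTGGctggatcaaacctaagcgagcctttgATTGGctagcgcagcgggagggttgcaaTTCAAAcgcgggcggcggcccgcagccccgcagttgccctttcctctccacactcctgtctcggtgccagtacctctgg
Mki67: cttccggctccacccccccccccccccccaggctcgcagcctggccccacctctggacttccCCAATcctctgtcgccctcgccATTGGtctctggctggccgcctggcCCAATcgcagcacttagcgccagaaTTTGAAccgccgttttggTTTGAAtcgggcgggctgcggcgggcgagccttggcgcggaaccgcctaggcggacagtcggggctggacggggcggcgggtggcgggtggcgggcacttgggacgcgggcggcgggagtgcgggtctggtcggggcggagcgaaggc
Top2a: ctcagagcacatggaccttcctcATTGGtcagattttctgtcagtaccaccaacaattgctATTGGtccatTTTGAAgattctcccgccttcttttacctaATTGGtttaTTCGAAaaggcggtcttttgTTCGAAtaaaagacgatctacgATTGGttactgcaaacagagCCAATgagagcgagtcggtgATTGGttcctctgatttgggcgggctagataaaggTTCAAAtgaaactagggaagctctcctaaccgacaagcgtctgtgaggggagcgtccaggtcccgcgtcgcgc

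The first question was whether these genes respond to 24 h of cold in Atf4WT iWAT. A gene was called where its fold change was above 1.5 and its unadjusted p below 0.05 in limma on log2(normalized count + 1). Adjusted p-values are Benjamini-Hochberg values over all 13404 tested genes. Cdt1, the licensing factor that loads the Mcm helicase onto origins, is listed as NM_026014 and located at chr8:122568015-122573554 on the plus strand, and its normalized counts were 79.01, 68.3 and 99.2 in Atf4WT and 81.8, 60.7 and 80.7 in Atf4AKO iWAT at RT. Its cold-exposed libraries had 98.6, 172 and 173 in Atf4WT and 73.3, 51.02 and 53.7 in Atf4AKO iWAT. Replicates 1 and 2 of cold-exposed Atf4WT were the highest libraries, while replicate 0 lay within the range at RT. Cdt1 rose with cold in Atf4WT iWAT by a log2 fold change of 0.81 (SE 0.26, adjusted p = 0.0361 from limma). Ube2c, listed as NM_026785 and located at chr2:164769898-164778822 on the plus strand, was at 141, 134 and 139 in Atf4WT and 126, 160.3 and 137 in Atf4AKO iWAT at RT. The values after cold exposure were 66.8, 89.7 and 106 in Atf4WT and 96.7, 65.8 and 58.02 in Atf4AKO iWAT. All 6 cold-exposed libraries lay below all 6 libraries at RT, and Ube2c fell in Atf4WT iWAT with a log2 fold change of -0.67 (SE 0.23, adjusted p = 0.04096 from limma). Anln, the actin-binding scaffold of the cleavage furrow, is listed as NM_028390 and located at chr9:22332012-22389188 on the minus strand and had 239.8, 205 and 193 in Atf4WT and 189, 219 and 245 in Atf4AKO iWAT at RT. In the cold-exposed mice it was at 159, 149.9 and 112 in Atf4WT and 187, 122 and 93.5 in Atf4AKO iWAT. The cold-exposed libraries of each genotype lay below its libraries at RT, with a log2 fold change of -0.60 (SE 0.24, adjusted p = 0.0757 from limma) in Atf4WT iWAT. Ccne2, an E-type cyclin that activates its kinase at the entry into DNA synthesis, ranged from 43.6 to 63.5 at RT and from 24.5 to 41.2 after cold exposure in Atf4WT iWAT, without overlap. It fell with a log2 fold change of -0.67 (SE 0.26, adjusted p = 0.0677 from limma). Mcm4, a helicase subunit gene listed as NM_008565 and located at chr16:15623897-15637400 on the minus strand, had 509, 449 and 414 in Atf4WT and 473, 367 and 507 in Atf4AKO iWAT at RT. After cold exposure the values were 249.6, 327 and 383 in Atf4WT and 248, 246 and 219 in Atf4AKO iWAT. Its cold-exposed libraries lay below those at RT in both genotypes, and in Atf4WT iWAT its log2 fold change of -0.53 (SE 0.17, adjusted p = 0.0352 from limma) missed the fold threshold.

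In all, 1 member was called higher and 3 were called lower after cold exposure in Atf4WT iWAT, of 35. In comparison, 10.9% of all tested genes were called higher and 10.3% lower. At an adjusted p below 0.05, 3 members passed (Cdt1, Ube2c and Mcm4), beside 31.9% of all tested genes. The median log2 fold change of the members was 0.04, beside 0.00257 over all tested genes. With 1 library left out this median lay on either side of 0. It was -0.18 without replicate 2 and 0.23 without replicate 0 of cold-exposed Atf4WT, -0.00179 without replicate 0, -0.10 without replicate 1 and 0.20 without replicate 2 of Atf4WT at RT, and 0.35 without the 2 libraries highest in muscle transcripts. The other 31 members were not called in this comparison. Ccne1, the other E-type cyclin, had 107, 184 and 99.2 in Atf4WT and 166, 121 and 86.3 in Atf4AKO iWAT at RT. Its cold-exposed libraries had 146, 171 and 171 in Atf4WT and 108, 155 and 121 in Atf4AKO iWAT, with overlapping groups. Mcm7 was at 784, 790.1 and 879 in Atf4WT and 805, 814 and 962 in Atf4AKO iWAT at RT. The values after cold exposure were 937, 893 and 877 in Atf4WT and 934, 847 and 943 in Atf4AKO iWAT. Pcna was at 1712, 1521 and 1465 in Atf4WT and 1553, 1661 and 1631 in Atf4AKO iWAT at RT. In the cold-exposed mice it was at 1313, 1515 and 1575 in Atf4WT and 1571, 1363 and 1406 in Atf4AKO iWAT. The groups overlapped for both genes, which varied less between libraries than the mitotic members. Aurka, the kinase of the spindle poles, had 92.8, 87.6 and 83.4 in Atf4WT and 101, 92.6 and 87.2 in Atf4AKO iWAT at RT. After cold exposure the values were 60.6, 97.1 and 79.1 in Atf4WT and 90.3, 62.4 and 49.4 in Atf4AKO iWAT. Its lowest libraries were cold-exposed ones of both genotypes, and the groups overlapped. Without replicate 0 of Atf4WT at RT the number of members called in Atf4WT iWAT was 2, namely Cdt1 and Ube2c. Ccne2 and Anln also lost their calls without replicate 1 of Atf4WT at RT and without replicate 2 of cold-exposed Atf4WT, where the log2 fold change of Ccne2 was -0.43. Ube2c lost its call without replicate 0 of cold-exposed Atf4WT and without the 2 libraries highest in muscle transcripts. With the log2 level of Lck in each library in the model, 12 members were called, all of them lower and Ube2c alone shared with the 4 above. In that fit 988 of all tested genes were called lower and 1353 higher. The median log2 fold change of the members was then -1.16, and that of Cdt1 was -0.03. Lck was at most 199 at RT and at least 226 after cold exposure in Atf4WT iWAT, so this fit cannot tell cold and Lck apart.

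**Figure D1:**
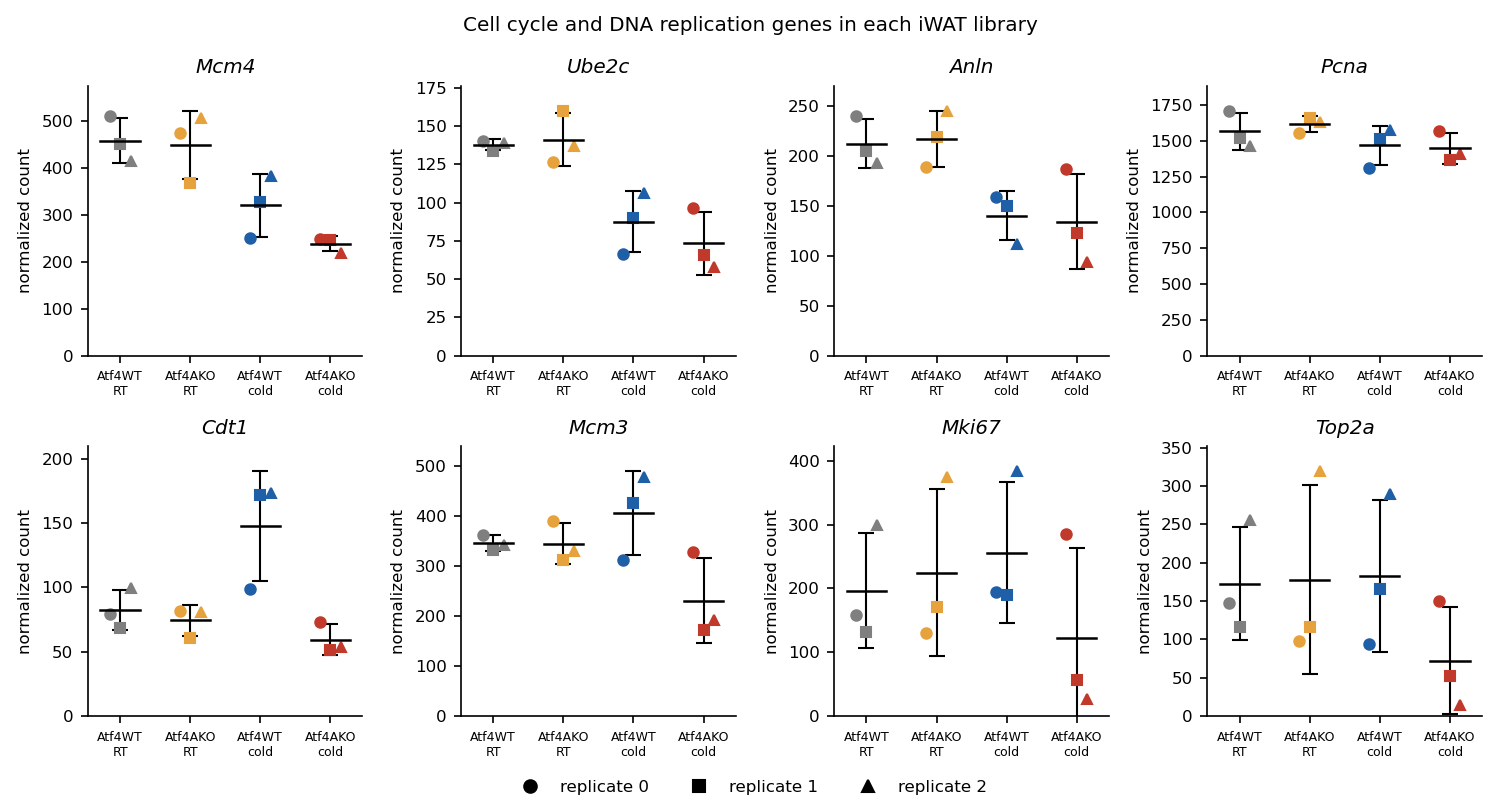
Normalized counts (vertical axes, from 0) of 8 members in each of the 12 iWAT libraries, with 1 point per library, the symbol marking the replicate number, horizontal lines at the group mean and bars of 1 SD (n = 3; bars that would reach below 0 are cut at the axis). Mcm4, Ube2c and Anln were lower in the cold-exposed libraries of each genotype than in its libraries at RT, Pcna overlapped between the groups, Cdt1 and Mcm3 were highest in replicates 1 and 2 of cold-exposed Atf4WT, and Mki67 and Top2a varied widely between replicates of a group.

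The second comparison asked how the members respond to cold where adipocytes lack Atf4. In Atf4AKO iWAT 0 members were called higher after cold exposure and 8 were called lower, of 35. In comparison, 8.30% of all tested genes were called higher and 8.92% lower. The count of 0 higher came from limma, with 10 members at an unadjusted p below 0.05 in either direction. Past the same threshold edgeR called 5 and DESeq2 7 members, all of them lower. Mcm3 and Aurkb were called by neither of these tools, and Cdk1 not by edgeR. The median log2 fold change of the members was -0.63, beside -0.03 over all tested genes, and 30 of the 35 had a value below 0. This median was -1.01 without replicate 0 of cold-exposed Atf4AKO and -0.31 without replicate 2 of that group, and -0.49 in edgeR and -0.48 in DESeq2. Among the cyclins and Cdk1, the mitotic kinase Cdk1 ranged from 55.8 to 153 at RT and from 24.7 to 88.2 after cold exposure, with overlap. It was called lower with a log2 fold change of -1.03 (SE 0.45, adjusted p = 0.114 from limma). Among the helicase subunits, Mcm4 fell with a log2 fold change of -0.90 (SE 0.17, adjusted p = 0.00354 from limma), with no overlap between the groups. Mcm2 ranged from 184 to 256 at RT and from 105 to 171 after cold exposure, also without overlap. It fell with a log2 fold change of -0.74 (SE 0.26, adjusted p = 0.0536 from limma). Mcm3, listed as NM_008563 and located at chr1:20802968-20820312 on the minus strand, had 363, 332 and 343 in Atf4WT and 391, 313 and 331 in Atf4AKO iWAT at RT. Its cold-exposed libraries had 313, 426 and 479 in Atf4WT and 328, 172 and 192 in Atf4AKO iWAT. Replicates 1 and 2 of cold-exposed Atf4AKO were its lowest libraries, and replicate 0 lay within the range at RT. The log2 fold change of Mcm3 was -0.63 (SE 0.23, adjusted p = 0.0645 from limma). Aurkb, the kinase of the chromosomal passenger complex, ranged from 32.9 to 74.2 at RT and from 4.53 to 55.3 after cold exposure, with overlap. It fell with a log2 fold change of -1.63 (SE 0.68, adjusted p = 0.09901 from limma). The value of 4.53 in replicate 1 of cold-exposed Atf4AKO stood for 4 reads. Nusap1, which binds and bundles spindle microtubules, ranged from 64.7 to 102 at RT and from 35.1 to 71.2 after cold exposure, with overlap. It fell with a log2 fold change of -0.92 (SE 0.33, adjusted p = 0.0621 from limma). Anln fell with a log2 fold change of -0.74 (SE 0.24, adjusted p = 0.0418 from limma) and Ube2c with one of -0.96 (SE 0.23, adjusted p = 0.0103 from limma), both without overlap between the groups. At an adjusted p below 0.05, 3 members passed (Mcm4, Ube2c and Anln), beside 25.9% of all tested genes.

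The replicates of cold-exposed Atf4AKO iWAT were unequal in nearly all members. Replicate 0 was the highest of the 3 for 32 of 35 members, and replicates 2 and 1 held the lowest value of all 12 libraries for 19 and 8 members. The number of members called in Atf4AKO iWAT was 24 without replicate 0 of cold-exposed Atf4AKO, 4 without replicate 1 and 2 without replicate 2 of that group. It was 5 without replicate 0 and 5 without replicate 2 of Atf4AKO at RT. Mcm4 and Ube2c were past the threshold in Atf4AKO iWAT under all 28 alternatives tried, left-out libraries included, whereas Cdk1 was under 12. With 1 library left out, Cdk1 lost its call in 7 of 12 cases, Aurkb and Nusap1 in 4 each, Mcm3 in 3, Mcm2 in 2 and Anln in 1. Cdk1 went to -0.62 without replicate 2 of cold-exposed Atf4AKO and -0.65 without replicate 2 of Atf4AKO at RT. Aurkb went to -2.49 without replicate 0 and -0.82 without replicate 1 of cold-exposed Atf4AKO. Scaled to the same total of reads, the median of all tested genes was -0.125 in this comparison, and 11 members were called lower. With Cd79a in the model 6 members were called lower and with Lck 4, all of them among the 8 called without these covariates. The median log2 fold change of the members was -0.583 and -0.42 in these fits, with 29 and 30 of the 35 below 0. Of all tested genes 1145 and 1158 were called lower, against 1196 with no covariate.

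**Figure D2:**
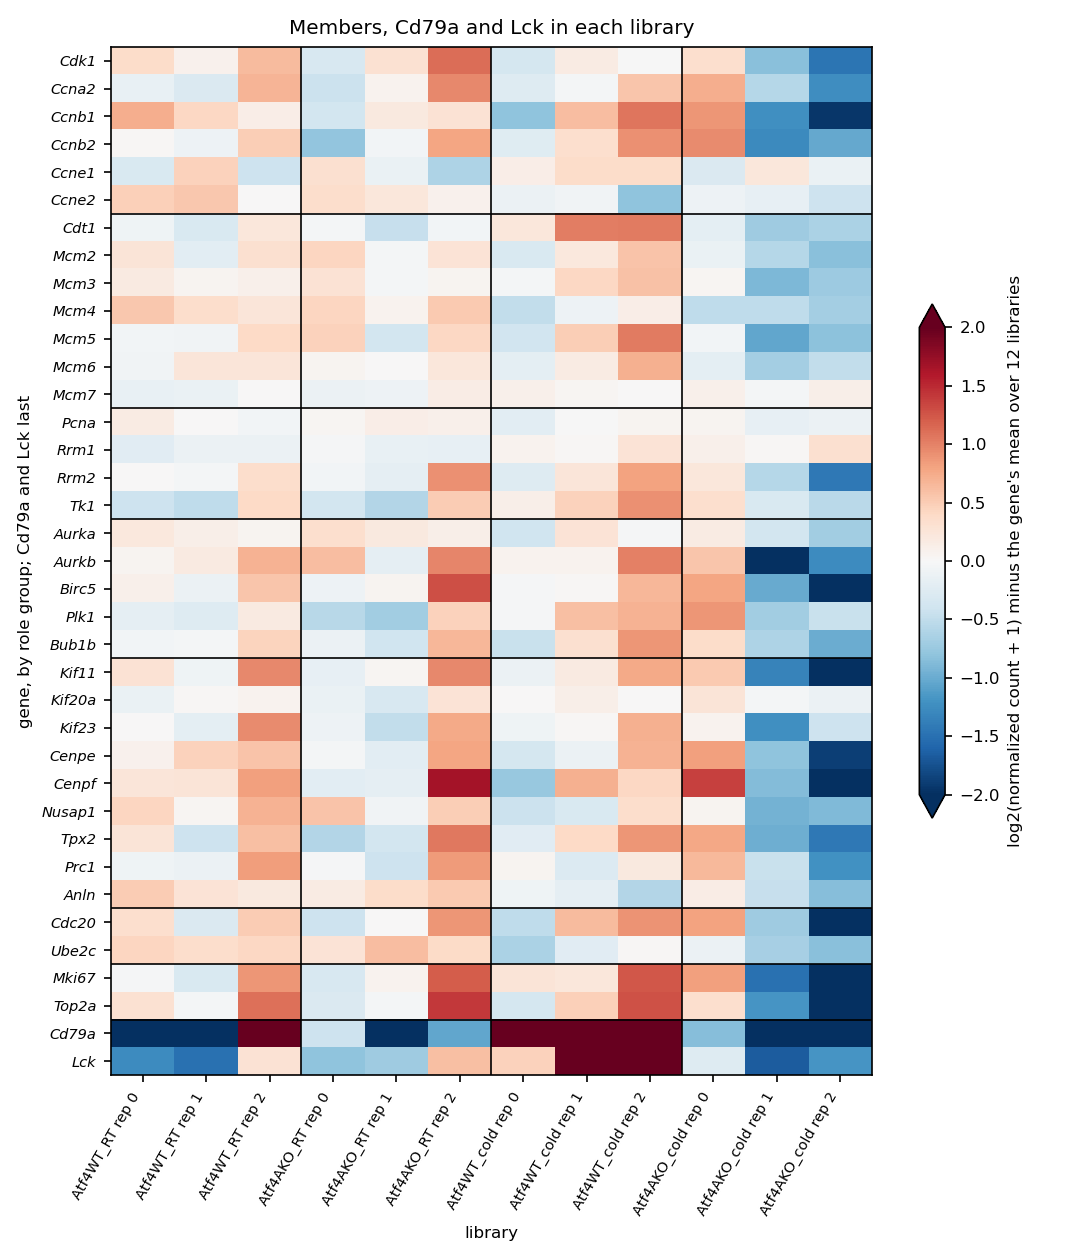
Each of the 35 members, in rows by role group, with Cd79a and Lck last, in the 12 libraries in columns, as log2(normalized count + 1) minus the mean of the gene over the 12 libraries (red above, blue below, colours capped at 2 in either direction). Most members were low in replicates 1 and 2 of cold-exposed Atf4AKO, and their mean was highest in replicate 2 of Atf4AKO at RT, the replicates 2 of Atf4WT at RT and after cold exposure, and replicate 0 of cold-exposed Atf4AKO. Of these 4 libraries both of Atf4WT were also high in Cd79a, and that of cold-exposed Atf4WT was the highest in Lck. Each of the 4 was the highest of its own group in Lck. Replicate 1 of cold-exposed Atf4WT came next by this mean and was also high in Cd79a and Lck.

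The third comparison set Atf4AKO against Atf4WT iWAT after cold exposure. Here 0 members were called higher in Atf4AKO iWAT and 8 were called lower, of 35, beside 0.358% of all tested genes called higher and 6.04% called lower. The median log2 fold change of the members was -0.68, beside 0.05 over all tested genes, and 32 of the 35 had a value below 0. Without replicate 0 of cold-exposed Atf4AKO this median was -1.03 and without replicate 2 of that group -0.33, and it was -0.49 in edgeR and -0.51 in DESeq2. This comparison shares the cold-exposed Atf4AKO libraries with the preceding one. Licensing and the helicase held 5 of the 8 members called lower, out of 7 with values. Cdt1 was lower in Atf4AKO iWAT with a log2 fold change of -1.28 (SE 0.26, adjusted p = 0.0667 from limma), and its groups did not overlap. Mcm3 was lower with a log2 fold change of -0.85 (SE 0.23, adjusted p = 0.115 from limma), with an overlap between 328 in replicate 0 of Atf4AKO and 313 in replicate 0 of Atf4WT. Mcm6 ranged from 285 to 535 in cold-exposed Atf4WT and from 203 to 284 in cold-exposed Atf4AKO iWAT, which did not overlap. It was lower with a log2 fold change of -0.69 (SE 0.21, adjusted p = 0.174 from limma). Mcm5 ranged from 115 to 312 in Atf4WT and from 72.6 to 145 in Atf4AKO iWAT, with overlap. It was lower with a log2 fold change of -1.02 (SE 0.38, adjusted p = 0.283 from limma). Mcm2 ranged from 153 to 282 in Atf4WT and from 105 to 171 in Atf4AKO iWAT, with overlap. Its log2 fold change was -0.68 (SE 0.26, adjusted p = 0.295 from limma). Mcm4 missed the fold threshold with a log2 fold change of -0.41 (SE 0.17, adjusted p = 0.369 from limma), with all 3 libraries of Atf4AKO below those of Atf4WT, and Mcm7 had one of 0.01 (SE 0.09, adjusted p = 0.982 from limma), with overlap. Mki67, listed as NM_001081117 and located at chr7:135689784-135716361 on the minus strand, had 159, 131 and 299 in Atf4WT and 129, 170.3 and 375 in Atf4AKO iWAT at RT. The values after cold exposure were 194, 190.0 and 384 in Atf4WT and 285, 56.7 and 25.8 in Atf4AKO iWAT. It was lowest in replicates 1 and 2 of cold-exposed Atf4AKO, while replicate 0 of that group lay above replicates 0 and 1 of cold-exposed Atf4WT. The log2 fold change of Mki67 was -1.67 (SE 0.73, adjusted p = 0.396 from limma). Top2a, the topoisomerase that untangles replicated DNA, ranged from 93.5 to 290.1 in Atf4WT and from 13.97 to 149.9 in Atf4AKO iWAT, with overlap. Its log2 fold change was -1.75 (SE 0.75, adjusted p = 0.387 from limma). Aurkb ranged from 39.04 to 76.3 in Atf4WT iWAT and was lower in Atf4AKO iWAT with a log2 fold change of -1.54 (SE 0.68, adjusted p = 0.399 from limma). Of the 9 spindle, kinetochore and cytokinesis members none was called by limma, with 0 at an unadjusted p below 0.05. All 9 had a log2 fold change below 0, with a median of -0.70.

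At an adjusted p below 0.05, limma passed 0 members in this comparison, with 9 at an unadjusted p below 0.05, while edgeR passed 0 and DESeq2 3, beside 0.0298% of all tested genes in limma, 3 genes in edgeR and 590 in DESeq2. Past the fold and unadjusted p threshold, edgeR called 5 members and DESeq2 5. Both called Cdt1, Mcm2, Mcm3, Mcm5 and Mcm6, as did limma on the 2 groups alone, and none of these called Mki67, Top2a or Aurkb. The number of members called was 24 without replicate 0, 2 without replicate 1 and 3 without replicate 2 of cold-exposed Atf4AKO. It was 4 without replicate 1 and 2 without replicate 2 of cold-exposed Atf4WT, and 5 without replicate 0 of Atf4WT at RT. Over all tested genes the number called was 598 to 1064 with 1 library left out, against 858 with all libraries. With 1 library left out, Aurkb lost its call in 10 of 12 cases, Mki67 in 8, Top2a in 5, Mcm2 in 4, Mcm5 in 3 and Mcm6 in 2, whereas Cdt1 and Mcm3 kept theirs in all 12. Mki67 went to -2.63 without replicate 0 and -0.92 without replicate 2 of cold-exposed Atf4AKO, Top2a to -0.89 without replicate 2, and Aurkb to -2.40 without replicate 0 and -0.73 without replicate 1 of that group. Mcm6 went to -0.44 without replicate 2 of cold-exposed Atf4WT. The model was also fitted with Cd79a, with Lck or with a lymphocyte score, which averages the log2 levels of T cell and B cell markers. In limma 0, 0 and 0 members were then called, with 0, 0 and 0 at an unadjusted p below 0.05. Of all tested genes 119, 61 and 115 were called lower in these fits, against 810 with no covariate. Covariates were not run in edgeR and DESeq2. The median log2 fold change of the members was then 0.17, 0.43 and 0.46. The median standard error went from 0.43 to 0.59, 0.46 and 0.57. Cd79a, Lck and the score did not overlap between these groups, so genotype and lymphoid signal cannot be told apart after cold exposure.

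**Figure D3:**
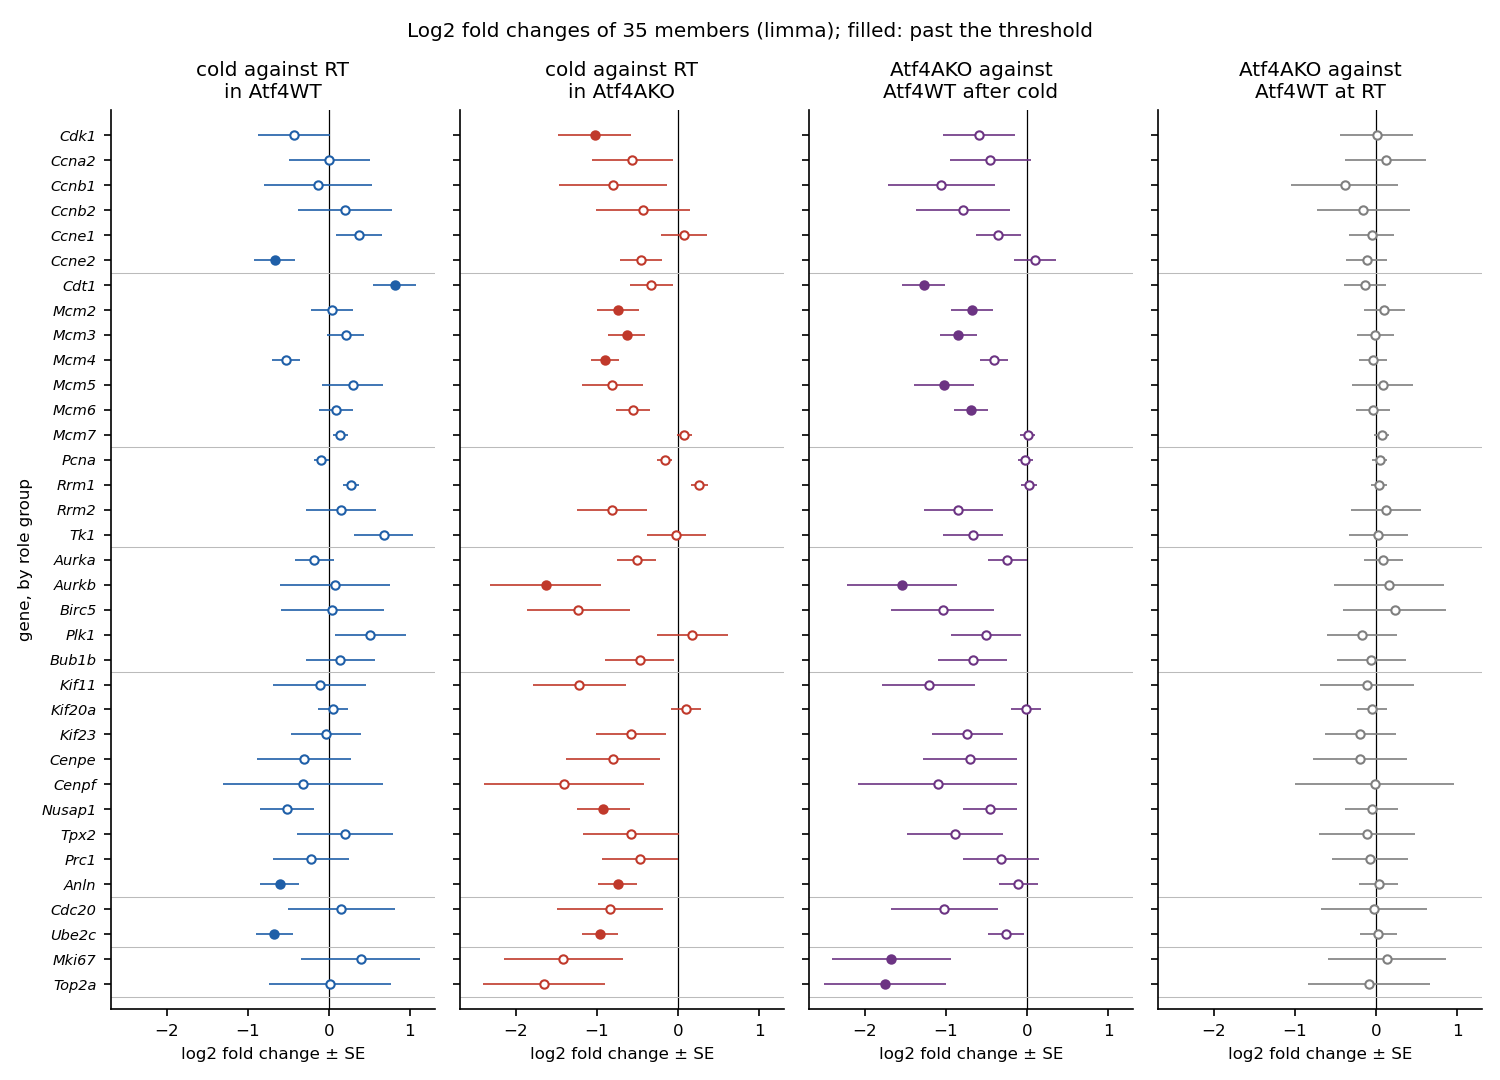
Log2 fold changes (horizontal axes) of the 35 members, in rows by role group, in 4 comparisons, with bars of 1 standard error from limma (n = 3 libraries a group) and filled points where the fold change was above 1.5 and the unadjusted p below 0.05. Points lie around 0 for Atf4AKO against Atf4WT at RT and for cold against RT in Atf4WT, and mostly below 0 for cold against RT in Atf4AKO and for Atf4AKO against Atf4WT after cold exposure.

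At RT the genotypes were compared in the same way. Limma called 0 members higher and 0 lower, with 0 at an unadjusted p below 0.05 and 0 at an adjusted p below 0.05. EdgeR and DESeq2 also called 0. Over all tested genes 0.179% were called higher, 0.283% lower, 1.53% had an unadjusted p below 0.05 and 0.00746% an adjusted p below 0.05. Every member overlapped between the genotypes, and the share of all tested genes that did so is not given here. The median log2 fold change of the members was -0.03, beside 0.00563 over all tested genes. It turned to 0.10 without replicate 2 of Atf4WT, 0.03 without replicate 0 and 0.08 without replicate 1 of Atf4AKO at RT, and was -0.21 without replicate 2 of Atf4AKO at RT. Ccnb1, the mitotic cyclin, is listed as NM_172301 and located at chr13:100778650-100786570 on the minus strand and had 46.9, 37.5 and 30.6 in Atf4WT and 21.4, 31.9 and 34.3 in Atf4AKO iWAT at RT. In the cold-exposed mice it was at 15.4, 43.3 and 59.3 in Atf4WT and 52.1, 11.3 and 6.45 in Atf4AKO iWAT. Its smallest values were in replicates 1 and 2 of cold-exposed Atf4AKO, and at RT its log2 fold change was -0.39 (SE 0.66, adjusted p = 0.9999 from limma). Mcm7 had a log2 fold change of 0.07 (SE 0.09, adjusted p = 0.9999 from limma) at RT. These were the members with the smallest unadjusted p at RT, and neither passed the threshold.

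Whether the cold response differed between the genotypes was tested as an interaction, the response in Atf4AKO minus that in Atf4WT. Limma called 0 members higher and 2 lower, beside 0.463% of all tested genes called higher and 4.17% lower. For Cdt1 the difference was -1.14 (SE 0.37, adjusted p = 0.489 from limma) on the log2 scale, with a response of 0.81 in Atf4WT iWAT. In Atf4AKO iWAT its response of -0.33 was not past the threshold. For Mcm3 the difference was -0.84 (SE 0.32, adjusted p = 0.597 from limma), with a response of -0.63 in Atf4AKO iWAT. In Atf4WT iWAT its response of 0.21 was not past the threshold. For the other 33 members the difference itself was not past the threshold, also where a response was called in 1 genotype. The median difference over the members was -0.61, beside 0.03 over all tested genes. It was -1.002 without replicate 0 and -0.26 without replicate 2 of cold-exposed Atf4AKO, -0.32 without replicate 2 of Atf4AKO at RT and -0.33 without replicate 2 of cold-exposed Atf4WT. In edgeR it was -0.45 and in DESeq2 -0.47, and without the 2 libraries highest in muscle transcripts -1.04. At an adjusted p below 0.05, limma passed 0 members, with 2 at an unadjusted p below 0.05, while edgeR passed 0 and DESeq2 0, beside 0% of all tested genes in limma, 0 genes in edgeR and 132 in DESeq2. The number of members called was 12 without replicate 0 of cold-exposed Atf4AKO, 5 without replicate 0 of cold-exposed Atf4WT and 4 without replicate 1 of Atf4AKO at RT. It was 1 without replicate 1 or 2 of cold-exposed Atf4AKO, replicate 2 of cold-exposed Atf4WT or replicate 0 of Atf4AKO at RT. DESeq2 called 5 members past the fold and unadjusted p threshold and edgeR 2. Without the 2 libraries highest in muscle transcripts limma called 5. With Cd79a, Lck or the lymphocyte score in the limma model, 0 were called, with 0, 0 and 0 at an unadjusted p below 0.05. The median difference over the members was 0.0496, 0.521 and 0.346 in these fits. Of all tested genes, 129, 149 and 199 were then called lower, against 559 with no covariate.

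The role groups of the members differed in the size of these medians. For the 6 cyclins and Cdk1 the median log2 fold change was -0.06 with cold in Atf4WT iWAT, -0.51 with cold in Atf4AKO iWAT and -0.52 between the genotypes after cold exposure. The 7 members of licensing and the helicase had 0.14 with cold in Atf4WT iWAT, -0.63 with cold in Atf4AKO iWAT and -0.69 between the genotypes after cold exposure. For the 4 members of the clamp and nucleotide supply it was 0.21 with cold in Atf4WT iWAT, -0.09 with cold in Atf4AKO iWAT and -0.34 between the genotypes after cold exposure, closest to 0 of the 7 groups in the last 2 comparisons. The 5 mitotic kinases and passenger members had 0.07 with cold in Atf4WT iWAT, -0.51 with cold in Atf4AKO iWAT and -0.67 between the genotypes after cold exposure. For the 9 members of spindle, kinetochore and cytokinesis it was -0.22 with cold in Atf4WT iWAT, -0.74 with cold in Atf4AKO iWAT and -0.70 between the genotypes after cold exposure. The 2 members of the anaphase-promoting complex had -0.26 with cold in Atf4WT iWAT, -0.90 with cold in Atf4AKO iWAT and -0.64 between the genotypes after cold exposure. Mki67 and Top2a had 0.20 with cold in Atf4WT iWAT, -1.53 with cold in Atf4AKO iWAT and -1.71 between the genotypes after cold exposure, farthest from 0 of the 7 groups in the last 2 comparisons. All 7 groups were thus below 0 in Atf4AKO iWAT with cold and between the genotypes after cold exposure, while their medians in Atf4WT iWAT lay on both sides of 0. Rrm1 stood apart, since all cold-exposed libraries of each genotype lay above its libraries at RT, at 635 to 685 and 749 to 895 in Atf4WT iWAT. In Atf4AKO iWAT Rrm1 was at 658 to 726 at RT and 752 to 919.7 after cold exposure, and neither difference passed the fold threshold.

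The members not yet described varied between libraries as follows. Ccna2, the cyclin of S phase and mitotic entry, ranged from 36.5 in replicate 2 of cold-exposed Atf4AKO to 172 in replicate 2 of Atf4AKO at RT. Ccnb2, a mitotic B-type cyclin, ranged from 17.01 in replicate 1 of cold-exposed Atf4AKO to 82.9 in replicate 0 of cold-exposed Atf4AKO. Both cyclins were therefore lowest in cold-exposed Atf4AKO libraries. The small subunit gene of ribonucleotide reductase, Rrm2, ranged from 26.9 in replicate 2 of cold-exposed Atf4AKO to 140.1 in replicate 2 of Atf4AKO at RT, with a larger fold between its lowest and highest library than Rrm1. Thymidine kinase (Tk1) ranged from 45.8 in replicate 1 of Atf4AKO at RT to 131 in replicate 2 of cold-exposed Atf4WT. Birc5, survivin of the passenger complex, ranged from 9.67 in replicate 2 of cold-exposed Atf4AKO to 121 in replicate 2 of Atf4AKO at RT. The replication and passenger genes thus shared their high and low libraries only in part. Plk1, the Polo kinase of mitosis, ranged from 25.9 in replicate 1 of Atf4AKO at RT to 79.7 in replicate 0 of cold-exposed Atf4AKO. Bub1b, a kinase-like protein of the spindle checkpoint, ranged from 31.2 in replicate 2 of cold-exposed Atf4AKO to 118 in replicate 2 of cold-exposed Atf4WT. The spindle motor gene Kif11 ranged from 11.8 in replicate 2 of cold-exposed Atf4AKO to 99.2 in replicate 2 of Atf4WT at RT. Kif23, a kinesin of the central spindle, ranged from 28.3 in replicate 1 of cold-exposed Atf4AKO to 131 in replicate 2 of Atf4WT at RT. Unlike these motors, Kif20a, a kinesin of cytokinesis whose exons overlap those of Cdc23, had a narrow range, from 79.7 in replicate 1 of Atf4AKO at RT to 119.7 in replicate 2 of Atf4AKO at RT. Cenpe, the kinetochore motor, ranged from 8.596 in replicate 2 of cold-exposed Atf4AKO to 61.7 in replicate 0 of cold-exposed Atf4AKO. Cenpf, which binds kinetochores and microtubules, ranged from 1.07 in replicate 2 of cold-exposed Atf4AKO to 70.5 in replicate 2 of Atf4AKO at RT. Tpx2 ranged from 20.4 in replicate 2 of cold-exposed Atf4AKO to 119 in replicate 2 of Atf4AKO at RT, and Prc1 from 29.01 in replicate 2 of cold-exposed Atf4AKO to 123 in replicate 2 of Atf4AKO at RT. Cdc20, the activator of the anaphase-promoting complex, ranged from 8.596 in replicate 2 of cold-exposed Atf4AKO to 78.2 in replicate 2 of cold-exposed Atf4WT. Over the 35 members, 11 were highest in replicate 2 of Atf4AKO at RT and 11 in replicate 2 of cold-exposed Atf4WT. The median standard deviation of a member between replicates was 0.57 on the log2 scale.

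Whether the members follow the lymphoid signal was then asked library by library. The mean log2 value of the 35 members was 7.23 in replicate 2 of Atf4AKO at RT, 7.17 in replicate 2 of cold-exposed Atf4WT, 7.05 in replicate 2 of Atf4WT at RT and 6.98 in replicate 0 of cold-exposed Atf4AKO, which were the highest. In the same order, Cd79a was at 48.2, 2667, 772 and 55.3, high in the Atf4WT libraries alone. Lck was at 249.6, 1438, 199 and 136 in these libraries. Each of them was the highest of its own group both in the mean of the members and in Lck. Each was also the highest of its group in Cd79a, except replicate 2 of Atf4AKO at RT. Over all libraries the members were thus highest in a library with low Cd79a and with Lck of 249.6. The lowest mean log2 values of the members were 5.55 and 5.91 in replicates 2 and 1 of cold-exposed Atf4AKO and 6.45 in replicate 0 of cold-exposed Atf4WT. The former had Cd79a of 13.97 and 20.4 and Lck of 71.99 and 51.02, and the latter had 723 and 226. Replicate 0 of cold-exposed Atf4WT was thus low in the members and, over all libraries, high in Cd79a. Within its group it was the lowest in both Cd79a and Lck, and it held the lowest value of its group for 29 of 35 members. Mki67 was high at low and at high Cd79a. It had 375 in replicate 2 of Atf4AKO at RT (Cd79a 48.2) and 384 in replicate 2 of cold-exposed Atf4WT (Cd79a 2667).

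Within the groups, a slope of each gene on the log2 value of the marker was fitted in limma beside the 4 group means. On Cd79a 31 of 35 members had a slope above 0, with a median of 0.17 beside -0.00749 over all tested genes. An unadjusted p below 0.05 with a slope above 0 was found for 7 members and for 5.20% of all genes. An adjusted p below 0.05 was found for 0 members and 0.149% of all genes. On Lck 33 of 35 members had a slope above 0, with a median of 0.40 beside -0.0166 over all tested genes. An unadjusted p below 0.05 with a slope above 0 was found for 19 members and for 8.45% of all genes. An adjusted p below 0.05 was found for 0 members and 1.49% of all genes, while slopes were not fitted in edgeR or DESeq2. The median slope on Lck was steepest for Mki67 and Top2a (0.68) and the mitotic kinases (0.48), and it was 0.21 for licensing and the helicase. Most members were thus higher where a library of the same group had more Lck, with single members short of the adjusted threshold. The number of members past it on Lck was 18 with array weights and 3 with values scaled to the same total of reads. It was 1 without replicate 0 of Atf4AKO at RT, replicate 0 of cold-exposed Atf4WT or replicate 2 of cold-exposed Atf4AKO. The share of all tested genes past the threshold in these settings is not given here. These counts are therefore not read as particular to the members.

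Across libraries Cd79a and Lck each fell into separate clusters, of 8 and 4 libraries for Cd79a with a gap of 3.25 on the log2 scale, and of 10 and 2 for Lck with a gap of 2.28. No correlation over all 12 libraries is therefore given. Within the 8 libraries low in Cd79a, Pearson's r of the members with Cd79a was above 0 for 33 of 35, with a median of 0.53, beside -0.02 over all tested genes. In the two-sided exact permutation test 1 member had an unadjusted p below 0.05, beside 1.42% of all genes with r above 0. After adjustment over all genes 0 members and 0% of all genes passed. That member was Prc1, which crosslinks microtubules of the central spindle, with r = 0.71 (adjusted p = 0.9999 from the permutation test). Its Spearman's rho was 0.74 over 8 libraries. Within the 10 libraries low in Lck, r of the members with Lck was above 0 for 31 of 35, with a median of 0.53, beside -0.05 over all tested genes. In the two-sided permutation test 13 members had an unadjusted p below 0.05, all with r above 0, beside 6.31% of all genes. After adjustment 0 members and 0.127% of all genes passed. The smallest p was that of Tk1, the thymidine kinase of S phase, with r = 0.85 (adjusted p = 0.197 from the permutation test). Its Spearman's rho was 0.62 over 10 libraries. Without the 2 libraries farthest from the median of the marker, the median r of the members was 0.64 with Cd79a over 6 libraries and 0.55 with Lck over 8. For single members r was 0.83 for Prc1 and 0.78 for Tk1. The median r was thus no smaller without these libraries, and no single relation passed the adjustment. These clusters hold libraries of several groups, so the correlations include differences between groups.

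**Figure D4:**
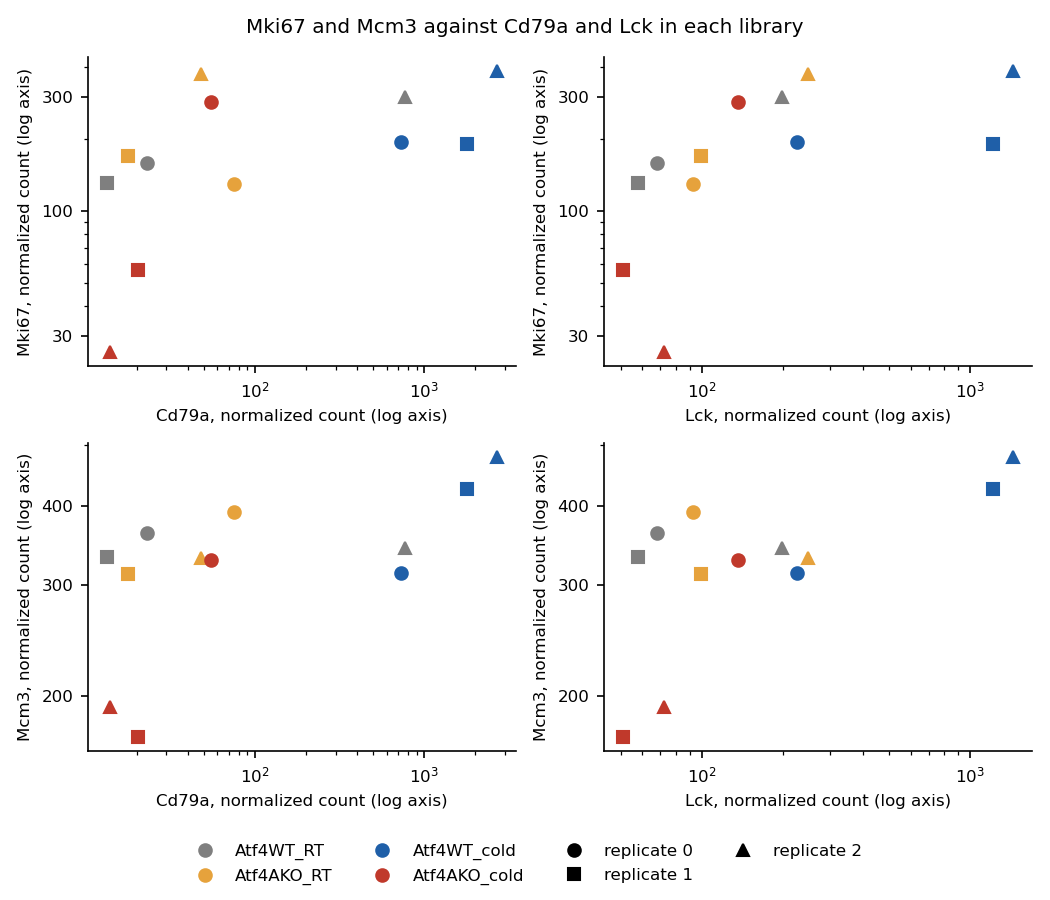
Mki67 (upper panels) and Mcm3 (lower panels) against Cd79a (left) and Lck (right) in the 12 libraries, as normalized counts on log axes, with colours for the groups and symbols for the replicate numbers. Mki67 reached 375 and 285 in libraries low in Cd79a (48.2 and 55.3) and was 194 in a library with Cd79a of 723. Within cold-exposed Atf4WT, that library had the lowest Cd79a and Lck.

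The tested genes whose pattern over the 12 libraries was most like that of Mki67 by Spearman's rho were Tpx2 (0.95), Myo9b (0.94), Cdca2, Ncapg, Hmgb2 and Kif15 (0.94 each), Pclaf (0.93), Kif2c (0.92), Nsl1 and Septin11 (0.91 each). Of these 10 genes Tpx2, which activates Aurka on the spindle, is a member, and Ncapg, Kif15, Pclaf and Kif2c are in the lists of further cell cycle genes.

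Further genes of the cell cycle and replication came from 7 lists with 133 genes, of which 126 were tested. With cold, 6 of them were called higher and 5 lower in Atf4WT iWAT (median -0.02), and 4 and 16 in Atf4AKO iWAT (median -0.33). In Atf4AKO against Atf4WT iWAT 0 were called higher and 12 lower after cold exposure, with a median of -0.23 and 89 of 126 below 0, beside 32 of the 35 members and 5449 of all 13404 tested genes. Over all tested genes the counts called higher and lower were 1459 and 1387 with cold in Atf4WT, 1113 and 1196 with cold in Atf4AKO, and 48 and 810 between the genotypes after cold exposure. The number of pathway genes called after cold exposure between the genotypes was 20 without replicate 0 and 2 without replicate 2 of cold-exposed Atf4WT. It was 33 without replicate 0 and 3 without replicate 2 of cold-exposed Atf4AKO. It was 3, 1 and 1 with Cd79a, Lck or the lymphocyte score in the model. Of 39 genes of replication initiation and the fork, 2 were called higher and 2 lower with cold in Atf4WT iWAT, and 7 were called lower in Atf4AKO iWAT after cold exposure. Geminin (Gmnn), which binds and inhibits the member Cdt1, had 127 to 149 and 279.7 to 294 at RT and after cold exposure in Atf4WT iWAT. It rose with a log2 fold change of 1.08 (SE 0.19, adjusted p = 0.002 from limma), so that Cdt1 and its inhibitor were both called higher there. With cold in Atf4WT iWAT, Gins2, a subunit of the replicative helicase complex that holds the Mcm members, fell with a log2 fold change of -0.91 (SE 0.17, adjusted p = 0.00281 from limma), and the recombination helicase gene Mcm8 with -1.02 (SE 0.23, adjusted p = 0.00653 from limma). Lower in Atf4AKO iWAT after cold exposure were Dbf4, which activates the kinase of the Mcm subunits (-0.68, SE 0.19, adjusted p = 0.124 from limma), the polymerase gene Pold1 (-0.73, SE 0.23, adjusted p = 0.202 from limma) and the ligase gene Lig1 (-0.59, SE 0.20, adjusted p = 0.216 from limma). Rpa1 had the highest counts of the list. Of 49 mitotic genes outside the members, with Zwint the highest in counts, 2 were called higher with cold in Atf4WT iWAT, the phosphatase gene Cdc25a (1.32, SE 0.11, adjusted p = 0.0000469 from limma) and the centromeric histone gene Cenpa (0.87, SE 0.26, adjusted p = 0.0264 from limma). In Atf4AKO against Atf4WT iWAT after cold exposure 5 of the 49 were called lower, with the smallest p for the condensin genes Smc4 (-0.83, SE 0.21, adjusted p = 0.1003 from limma) and Ncapg (-1.95, SE 0.67, adjusted p = 0.238 from limma) and the kinetochore gene Ndc80 (-1.54, SE 0.58, adjusted p = 0.295 from limma). Of 13 E2F and pocket protein genes, with Rb1 the highest in counts, 3 were called with cold in Atf4WT iWAT. Rbl1 (-0.74, SE 0.12, adjusted p = 0.00172 from limma) and E2f1 (-0.68, SE 0.19, adjusted p = 0.0176 from limma) fell and E2f2 (1.41, SE 0.40, adjusted p = 0.0208 from limma) rose. Of these 13 genes 0 were called between the genotypes after cold exposure, with 1 at an unadjusted p below 0.05 in limma. Of 6 tested inhibitors of cyclin-dependent kinases, with Cdkn2c the highest in counts, Cdkn1a (p21) rose with cold in Atf4WT iWAT (1.14, SE 0.14, adjusted p = 0.000259 from limma). In Atf4AKO iWAT Cdkn1a rose with cold by 1.66 (SE 0.14, adjusted p = 4.06e-05 from limma). Of these 6 genes 0 were called between the genotypes after cold exposure, with 1 at an unadjusted p below 0.05 in limma. That gene was Cdkn1a, higher in Atf4AKO iWAT by 0.52 (SE 0.14, adjusted p = 0.102 from limma), short of the fold threshold. The difference of its cold responses was 0.52 (SE 0.19, adjusted p = 0.575 from limma), also short of it. Of 6 genes of other nucleotide supply, with Samhd1 the highest in counts, 0 were called between the genotypes after cold exposure, with 1 at an unadjusted p below 0.05 in limma. Neither the 8 G1 cyclins and kinases, with Ccnd2 the highest, nor the 5 mitotic transcription regulators, with Lin52 the highest, had a call with cold in Atf4WT iWAT, with 0 and 0 at an unadjusted p below 0.05 in limma.

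Markers of cell types were measured beside the members, and their part in the members' results was not tested beyond the fits with Cd79a, Lck and the lymphocyte score. Of 13 B cell markers 11 are listed, with Cd37 the highest in counts, and all 11 were called higher with cold in Atf4WT iWAT and lower in Atf4AKO iWAT after cold exposure. The smallest p in the former were those of Cd79a (4.55, SE 1.24, adjusted p = 0.0175 from limma), Blk (4.73, SE 1.29, adjusted p = 0.0176 from limma) and Cd22 (4.98, SE 1.44, adjusted p = 0.0223 from limma). In the latter they were those of Bank1 (-3.55, SE 0.69, adjusted p = 0.0648 from limma), Cd79b (-5.19, SE 1.03, adjusted p = 0.0648 from limma) and Cr2 (-5.43, SE 1.11, adjusted p = 0.0667 from limma). Their summed level was 544, 463 and 5084 in Atf4WT and 1161, 396 and 671 in Atf4AKO iWAT at RT. After cold exposure the values were 5018, 9808 and 16571 in Atf4WT and 832, 184 and 473 in Atf4AKO iWAT. Of 16 T cell markers, with Lck the highest in counts, 15 were called higher with cold in Atf4WT iWAT, with Cd4 (3.64, SE 0.64, adjusted p = 0.00201 from limma), Tcf7 (3.96, SE 0.84, adjusted p = 0.00515 from limma) and Cd8b1 (4.53, SE 0.97, adjusted p = 0.00558 from limma) first. All 16 were called lower in Atf4AKO iWAT after cold exposure, with Cd4 (-3.75, SE 0.64, adjusted p = 0.0648 from limma), Cd8b1 (-5.23, SE 0.97, adjusted p = 0.0648 from limma) and Cd28 (-3.17, SE 0.60, adjusted p = 0.0648 from limma) first. Their summed level was 526, 451 and 1217 in Atf4WT and 642, 563 and 1367 in Atf4AKO iWAT at RT. The cold-exposed libraries had 1447, 9213 and 10772 in Atf4WT and 769.6, 324 and 421 in Atf4AKO iWAT. All 3 listed lymph node stroma markers of 6, Cxcl13, the highest in counts, Fut7 and Madcam1, were called higher with cold in Atf4WT iWAT and lower in Atf4AKO iWAT after cold exposure. The latter log2 fold changes were -2.10, -2.19 and -1.77. Their summed level was 215, 154 and 451 in Atf4WT and 528, 126 and 151 in Atf4AKO iWAT at RT. The values after cold exposure were 725, 607 and 1623 in Atf4WT and 229.6, 107 and 422 in Atf4AKO iWAT. The B and T cell markers thus rose with cold in Atf4WT iWAT, apart from 1 T cell marker that was not called, while 1 of the members was called higher and 3 lower. With cold in Atf4AKO iWAT 1 B cell and 1 T cell marker were called lower beside 8 of the 35 members. In this comparison 10 of 11 B cell markers lay below 0, with a median of -0.58 on the log2 scale, and 14 of 16 T cell markers, with a median of -0.73, beside 30 of the 35 members, with a median of -0.63. Of 9 listed germinal centre and plasma cell markers of 11, with Xbp1 the highest in counts, 2 were called higher with cold in Atf4WT iWAT, Bcl6 (1.30, SE 0.28, adjusted p = 0.00607 from limma) and Gcsam (1.06, SE 0.39, adjusted p = 0.0574 from limma), and 2 lower, among them Xbp1 (-0.66, SE 0.13, adjusted p = 0.00408 from limma). In this list 2 were called lower in Atf4AKO iWAT after cold exposure, Gcsam (-1.20, SE 0.39, adjusted p = 0.204 from limma) and Jchain (-2.52, SE 0.98, adjusted p = 0.313 from limma). Of 8 listed macrophage markers of 9, with Lyz2 the highest in counts, 0 were called in either comparison, with 0 at an unadjusted p below 0.05 in limma. Their summed level was 26666, 22269 and 30536 in Atf4WT and 38293, 20436 and 26051 in Atf4AKO iWAT at RT. In the cold-exposed mice it was at 27174, 12551 and 31989.5 in Atf4WT and 26099, 4812 and 25743 in Atf4AKO iWAT. Of 8 adipose progenitor markers, with Pi16 the highest in counts, 1 was called higher with cold in Atf4WT iWAT, Icam1 (1.01, SE 0.26, adjusted p = 0.0128 from limma), and 3 lower, among them Dlk1 (-1.87, SE 0.51, adjusted p = 0.0171 from limma) and Ly6a (-0.71, SE 0.26, adjusted p = 0.0584 from limma). Icam1 alone was lower in Atf4AKO iWAT after cold exposure (-0.78, SE 0.26, adjusted p = 0.211 from limma). With cold in Atf4AKO iWAT limma called 3 of the 8 progenitor markers lower, with a median log2 fold change of -0.85. There it called 0 of the 8 macrophage markers, with 0 at an unadjusted p below 0.05 and a median of -0.95, and 3 of the 9 germinal centre and plasma cell markers lower and 1 higher. The summed level of the progenitor markers was 24587, 25022 and 32559 in Atf4WT and 30009, 20613 and 30640 in Atf4AKO iWAT at RT. After cold exposure the values were 22653, 8336 and 18163 in Atf4WT and 15599.6, 7682 and 21172 in Atf4AKO iWAT. It was lowest, like that of the macrophage markers, in the replicates 1 of both cold-exposed groups, of which Atf4AKO alone was also low in the members. Of 4 listed neutrophil and monocyte markers of 6, with Ccr2 the highest in counts, Ly6c2 rose with cold in Atf4WT iWAT (1.94, SE 0.49, adjusted p = 0.0127 from limma) and was lower in Atf4AKO iWAT after cold exposure (-1.91, SE 0.49, adjusted p = 0.0985 from limma). Of 7 white adipocyte markers, with Fabp4 the highest in counts, Adipoq (-0.60, SE 0.16, adjusted p = 0.0148 from limma) and Lep (-1.12, SE 0.40, adjusted p = 0.0529 from limma) fell with cold in Atf4WT iWAT. All 6 thermogenic genes rose there, with Ucp1 (7.67, SE 0.47, adjusted p = 0.0000132 from limma), Elovl3 (7.75, SE 0.52, adjusted p = 0.0000149 from limma) and Cidea (2.16, SE 0.21, adjusted p = 0.0000871 from limma) first. The 6 endothelial markers, with Pecam1 the highest in counts, the tested erythroid marker Alas2 and the 3 muscle markers had 0 calls in these comparisons by limma. Of them 3 endothelial markers and 0 others had an unadjusted p below 0.05 with cold in Atf4WT iWAT. The 5 epithelial markers were not analysed here.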

How the data were processed

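Polyadenylated RNA of iWAT from 12 mice, 3 in each of 4 groups of genotype and temperature, was measured with strand-specific libraries. The authors filtered reads with SOAPnuke, used STAR for alignment (mm10) and featureCounts for counting of unique alignments, and divided the counts by DESeq2 size factors in pyDESeq2, and the deposited signal values are these normalized counts, for genes with at least 1 read in every library. All 12 columns were used. Dividing each column by its step per read gave whole reads within 0.001 for 100% of values (largest deviation 0.000313), which were used for the count tests and for the depth of 25719476 to 29105147 reads.

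Log2(value + 1) of 13404 genes with a mean of at least 10 (755 lay below) was fitted by group in limma 3.58.1 (lmFit, eBayes with trend) under R 4.3.3 and the fit was tested on simulated data. The 5 contrasts were cold against RT in each genotype, Atf4AKO against Atf4WT at each temperature, and the difference of the cold responses, and a gene was called at a fold change above 1.5 and an unadjusted p below 0.05. In edgeR 4.0.16 the recovered reads gave 2831, 2222, 854, 138 and 593 called genes for cold in Atf4WT, cold in Atf4AKO, genotype after cold, genotype at RT and the difference, and in DESeq2 1.42.0 2851, 2237, 864, 101 and 639, beside 2846, 2309, 858, 62 and 621 in limma. Correlations with Cd79a and Lck (Python 3.11.15, numpy 2.4.6, scipy 1.17.1) were tested by permuting libraries, exactly (40320 orders) for Cd79a and with 100000 permutations for Lck, within the larger cluster of libraries. The split into clusters and the adjustment over all tested genes rather than the members alone were chosen after seeing the data. Tables were joined in pandas 2.3.3 and drawn in matplotlib 3.10.9.

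The members and the lists of pathway and cell type genes were chosen with earlier results of these data known. Values in every library were printed for the member with the highest mean in each of 7 role groups and for the 2 members with the smallest unadjusted p in each comparison, other members by range, and of each further list the gene with the highest mean and up to 3 called genes with the smallest p with cold in Atf4WT or between the genotypes after cold. The result of 1 gene that this rule names is not reported here. The genes most like Mki67 were the 10 with the highest Spearman's rho. Promoters came from RefSeq (GRCm38.p6), and gene positions, overlaps and pseudogenes from GENCODE vM21. Alternatives were each library left out, other pseudocounts, filters and scalings, array weights, a replicate block, only the groups compared, lymphoid covariates, edgeR, DESeq2, adjusted p, and leaving out the 2 libraries highest in muscle transcripts.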

Additional observations from a re-analysis of the deposited data

Results flagged for a closer look

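For 2 of the 35 members the interaction of genotype and cold passed the threshold of fold change and unadjusted p in limma, beside 4.17% of all tested genes called lower, and whether the 2 shares differ was not tested. It was -1.14 for Cdt1 (SE 0.37, adjusted p = 0.489 from limma), with a response of 0.81 in Atf4WT and -0.33 in Atf4AKO iWAT on the log2 scale. For Mcm3 it was -0.84 (SE 0.32, adjusted p = 0.597 from limma), with a response of 0.21 in Atf4WT and -0.63 in Atf4AKO iWAT. Neither passed after adjustment over all tested genes, and with Cd79a, Lck or the lymphocyte score in the limma model 0 members were called, with 0 at an unadjusted p below 0.05 in each fit. Over the 27 alternatives tried, the difference ranged from -1.55 to -0.0812 for Cdt1 and from -1.12 to -0.175 for Mcm3. In the fits with 1 library left out it ranged from -1.41 to -1.002 and from -1.12 to -0.659. With 1 library left out, Mcm3 lost its call without replicate 1 or 2 of cold-exposed Atf4AKO, replicate 2 of cold-exposed Atf4WT or replicate 0 of Atf4AKO at RT, and Cdt1 in none of the 12 cases.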

How the results depend on the processing

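With 1 library left out at a time, the number of members called was 2 to 6 for cold in Atf4WT iWAT (limma, 4 with all libraries), 2 to 24 for cold in Atf4AKO iWAT (8), 2 to 24 between the genotypes after cold exposure (8) and 1 to 12 for the difference of the responses (2). It was 0 to 1 for the slope on Lck and 0 for the slope on Cd79a, for the genotypes at RT and for the correlations, and 2 to 33 for the further pathway genes. Both counts of 24 were without replicate 0 of cold-exposed Atf4AKO. In Atf4AKO iWAT the lowest count was without replicate 2 of cold-exposed Atf4AKO. Between the genotypes it was without replicate 2 of cold-exposed Atf4WT or replicate 1 of cold-exposed Atf4AKO. Over all tested genes these left-out fits called 2537 to 3090 for cold in Atf4WT iWAT and 1864 to 2697 in Atf4AKO iWAT. They called 598 to 1064 between the genotypes after cold exposure and 409 to 868 for the difference of the responses.

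With a lymphocyte score, Cd79a or Lck in the model, 7, 3 and 12 members were called for cold in Atf4WT iWAT and 6, 6 and 4 in Atf4AKO iWAT. Of all 13404 tested genes, these fits called 1034, 1080 and 988 lower and 1426, 1359 and 1353 higher with cold in Atf4WT iWAT. In Atf4AKO iWAT they called 1137, 1145 and 1158 lower and 1062, 1073 and 1069 higher. In Atf4AKO iWAT the median log2 fold change of the members was then -0.54, -0.583 and -0.42, against -0.63 with no covariate. Between the genotypes after cold exposure and for the difference of the responses 0 were called with each, with 0 at an unadjusted p below 0.05 in limma, and 1, 3 and 1 of the pathway genes. The log2 fold change of Cdt1 with cold in Atf4WT iWAT turned to -0.0838 with the score and -0.0338 with Lck. Between the genotypes after cold exposure those of Mcm5 turned to 0.62, 0.0957 and 0.32 with the score, Cd79a and Lck, of Mcm2 to 0.295, 0.071 and 0.0835, of Top2a to 0.598, 0.18 and 0.57 and of Mki67 to 0.45, 0.17 and 0.32. Aurkb turned to 0.56 with the score and 0.18 with Lck, and Mcm6 to 0.0387 with the score. Cd79a, Lck and the score do not overlap between the cold-exposed genotypes, so these fits cannot tell genotype and lymphoid signal apart, and the cause was not tested. Lck and the score also do not overlap between RT and cold in Atf4WT iWAT. There the score was at most 7.09 at RT and at least 7.21 after cold exposure. The fits with Lck and with the score therefore have the same limit there.

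At an adjusted p below 0.05 in limma, 3 members passed in Atf4AKO iWAT, 0 between the genotypes after cold exposure and 0 for the difference. In these comparisons 10, 9 and 2 had an unadjusted p below 0.05, and DESeq2 passed 4, 3 and 0, and edgeR 2, 0 and 0. Of all 13404 tested genes, limma passed 3467, 4 and 0, DESeq2 4023, 590 and 132, and edgeR 3464, 3 and 0. In limma 5235, 1571 and 928 of them had an unadjusted p below 0.05. Of the pathway genes 0 passed in limma between the genotypes after cold exposure, with 19 at an unadjusted p below 0.05. EdgeR called 5 members in Atf4AKO iWAT and 5 between the genotypes after cold exposure, where DESeq2 called 5, a fit of the compared groups alone 5, and DESeq2 5 for the difference. Array weights gave 5 for the difference and 18 for the slope on Lck, and reads scaled to the same total gave 3 for that slope. The shares of all tested genes past the threshold for that slope in these settings are not given here. Without the 2 libraries highest in muscle transcripts, an alternative chosen after seeing the data, 5 members were called for the difference and 20 pathway genes between the genotypes, and a filter at a mean of 50 gave 7 of the latter. At RT the log2 fold change of Mcm7, not called, was -0.0119 without replicate 2 of Atf4AKO at RT and 0.124 without replicate 2 of Atf4WT at RT. The cause was not tested.

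With the replicate number as a block, 4, 7, 7, 0 and 3 members were called in the 5 comparisons, in the order of the report, 0 and 0 for the slopes on Cd79a and Lck, and 12 pathway genes; between the genotypes after cold exposure Mki67 and Top2a were not among those called and Kif23 was. The shares of all tested genes called with the block are not given here, so these counts are not read as particular to the members. Libraries of the same number were best correlated in 17 of 36 relations between groups. The median replicate SD of a member was 0.57 on the log2 scale, and depth limits the members with few reads, down to 1 for Cenpf in a library. Each left-out fit kept at least 2 libraries a group.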
